A study of Mus musculus with 12 samples.

Results

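Interferon response genes are genes whose transcription is switched on when interferon reaches a cell. The expression of 44 of them was measured by RNA-seq in CommaDβ cells, a normal murine mammary epithelial line. The members were given by name, and all 44 were rows of the deposited table, which lists 21853 genes. The libraries fall into 4 groups of 3. Scahigh34a cells were sorted for high stem cell antigen-1 (Sca-1), carried a lentiviral vector with a doxycycline-inducible miR-34a, and had received doxycycline for 24 hours. ScahighNT cells were the same sorted cells with the same vector and no doxycycline. Scahigh cells carried no vector and have properties of mammary progenitors, and Scalow cells were the Sca-1 negative, luminal side of the line, also with no vector. Doxycycline was given only together with the miRNA, so effects of the drug and of miR-34a cannot be told apart, and all cells come from 1 line.

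Groups were taken from the sample titles and source names. For the vector-carrying samples the genotype label runs against the titles, since it names the uninduced cells as expressing the miRNA and the induced cells as control. The miR-34a locus sided with the titles: Mir34a was at 87.8, 74.9 and 128 RPKM in Scahigh34a, against 0.372, 0.928 and 0.483 RPKM in ScahighNT libraries. The libraries held 33668289 to 41828848 reads in genes. Labels do not say that the libraries came from separate cultures, so p-values measure the spread between these libraries only, which may be technical. Libraries 3 (Scahigh) and 12 (Scahigh34a) stood apart from the others of their group: the 4 within-group pairs that hold one of them had a chi-square per gene of 46.24 to 118.0, against 9.108 to 27.41 in the other 8 pairs. Genes are given in RPKM scaled between libraries, a level per length of transcript.

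Interferons act from outside the cell through receptors that carry the Janus kinases. Type I and type III interferon lead to a complex of STAT proteins with IRF9 on the interferon-stimulated response element (ISRE), whereas interferon gamma leads to a STAT dimer on the gamma-activated site (GAS). IRF1 and IRF7, themselves interferon response genes, bind elements of the ISRE kind and carry the response further. The products of the genes cut, edit or block viral RNA, hold virus particles at membranes, or sense nucleic acids in the cytosol, and epithelial cells make them at a low level also without infection.

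The mature miRNA that the vector expresses is printed first. The promoter elements of the genes on which the results turn follow, because these elements hold the letters that the factors just named are known to bind. miR-34a-5p is encoded at chr4:150068473-150068494 on the plus strand of the RefSeq build GRCm38.p6. Capitals mark its seed, bases 2 to 8.
miR-34a-5p: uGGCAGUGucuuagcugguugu
A match was counted if it paired with bases 2 to 8 (CACTGCC), or with bases 2 to 7 followed by an A (ACTGCCA). One was present in the annotated 3′ UTR of 7 of the 44 members, 15.9%. Among tested genes with such a UTR, it was present in 5 of 35 members, 14.3%, and in 25.5% of all genes. The 7 are Uba7, Ddx58, Mx1, Iigp1, Igtp, Parp14 and Ifi35. The UTRs of the members ran from 68 bases in Ifi27 to 3613 in Rsad2, and the shares were not matched for length. A match is a description of letters, not a shown target.

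RefSeq promoters, 300 bases that reach from before to just after the start, were at hand for 33 members. The ISRE core (GAAA, any 2 bases, GAAA), searched on both strands, stood in 17 of them (51.5%), against 3.96% of the 16524 listed genes that have a promoter in the same table. The GAS core (TTC, any 3 bases, GAA), which reads the same on both strands, stood in 9 (27.3%), against 9.07%. The cores could share letters, but in Igtp they stood side by side. Capitals mark the core in the windows below, which are read along the strand of the gene, so that TTTC, any 2 bases, TTTC is the ISRE core on the other strand.
Isg15 (chr4:156200865-156200894, minus strand): aaaggaaaccGAAACAGAAAatagctctgg
Ifit1 (chr19:34640794-34640823, plus strand): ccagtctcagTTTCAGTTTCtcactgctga
Igtp (chr11:58199512-58199541, plus strand): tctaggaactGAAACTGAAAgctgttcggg
Irgm1 (chr11:48871425-48871454, minus strand): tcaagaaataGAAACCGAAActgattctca
Eif2ak2 (chr17:78882535-78882564, minus strand): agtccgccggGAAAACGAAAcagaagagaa
Ddx58 (chr4:40239804-40239833, minus strand): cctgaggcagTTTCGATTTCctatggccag
Irf1, GAS core (chr11:53769914-53769942, plus strand): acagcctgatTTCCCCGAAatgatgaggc
Ifit2, GAS core (chr19:34550444-34550471, plus strand): catgggagcTTCCTGGAAgaatggataa
From the start of the gene, the ISRE core began at position -66 in Isg15, -85 in Ifit1, -34 in Igtp, -24 in Irgm1, 19 in Eif2ak2 and 3 in Ddx58, and the GAS core at -90 in Irf1 and -241 in Ifit2. Among the 17 members with the ISRE core, 14 were tested, 10 rose on induction of miR-34a and 11 were lower in Scahigh than in Scalow, beside 17.5% of all tested genes that rose and 20.4% that were lower. Among the 16 members with a promoter and no such core, 15 were tested, 9 rose and 9 were lower. Irf7, Irf9, Oasl1, Oasl2, Ifi44, Uba7, Xaf1 and Samd9l belong to those with no core in these 300 bases. Members with and without the core moved. With the core, Stat2, Gbp2, Ifitm2 and Ifitm3 were not called on induction, and Ifit3, below the filter, was called lower on recovered reads. Without it, Irf9, Oasl1, Isg20, Dtx3l and Trim25 were not called and Ifit2 fell. The ISRE windows printed above are all from members that rose. Irf9, Oasl1, Oasl2 and Ifi44, and with the core Isg15, Oas3 and Ifit1, were tested only because of their Scalow libraries. Uba7 was tested only because of Scahigh34a. The calls of these members in comparisons with that group carry little by themselves.

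Most of the tested members moved in 2 comparisons, and in opposite directions. Induction of miR-34a went with a rise of 25 members and a fall of 1 (Scahigh34a against ScahighNT), while 17.5% of the 10597 tested genes rose and 21.4% fell. Scahigh cells had 24 members lower and 2 higher than Scalow cells, with 20.4% of tested genes lower and 19.9% higher. A gene was called if limma gave it a Benjamini-Hochberg adjusted p below 0.01 over all tested genes and if its log2 fold change exceeded 0.50 in size. The median log2 fold change of the tested members was 0.97 on induction, against -0.03 over all tested genes, and -1.34 for Scahigh against Scalow, where all genes stood at -0.003. Of the 44 members, 35 reached 1 RPKM in at least 3 libraries and were tested. Irf9, Usp18, Oas3, Oasl1, Oasl2, Ifit1 and Ifi44 passed only through the Scalow libraries and Uba7 and Zbp1 only through Scahigh34a, so they had to differ and their calls in those comparisons carry little by themselves. Isg15 and Rtp4 also passed only with the Scalow libraries, since some but not all Scahigh34a libraries and no other Scahigh or ScahighNT library reached 1 RPKM. Irf7, Ifih1, Gbp3, Igtp, Xaf1 and Ifi35 reached 1 RPKM in Scahigh34a and Scalow libraries only, the high side of both comparisons. Their calls carry less by themselves too. The other 9 members, Dhx58, Oas1a, Oas2, Ifit3, Mx1, Mx2, Iigp1, Ifitm1 and Rsad2, stayed below the filter and are given by their reads. With a pseudocount of 1 in place of 0.1, 18 members rose on induction, and Usp18, Oas3, Oasl2, Ifit1, Gbp3, Ifi35 and Ifi44 were no longer called. The share of all tested genes at that setting is not given, so the 18 shows only how the member count shifts. With limma-voom on whole reads recovered from the table and no filter, the counts over all 44 members were 28 higher and 2 lower on induction (14.4% and 13.7% of 18912 genes), and 2 higher and 29 lower in Scahigh than in Scalow (17.0% and 15.1%).

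**Figure D1:**
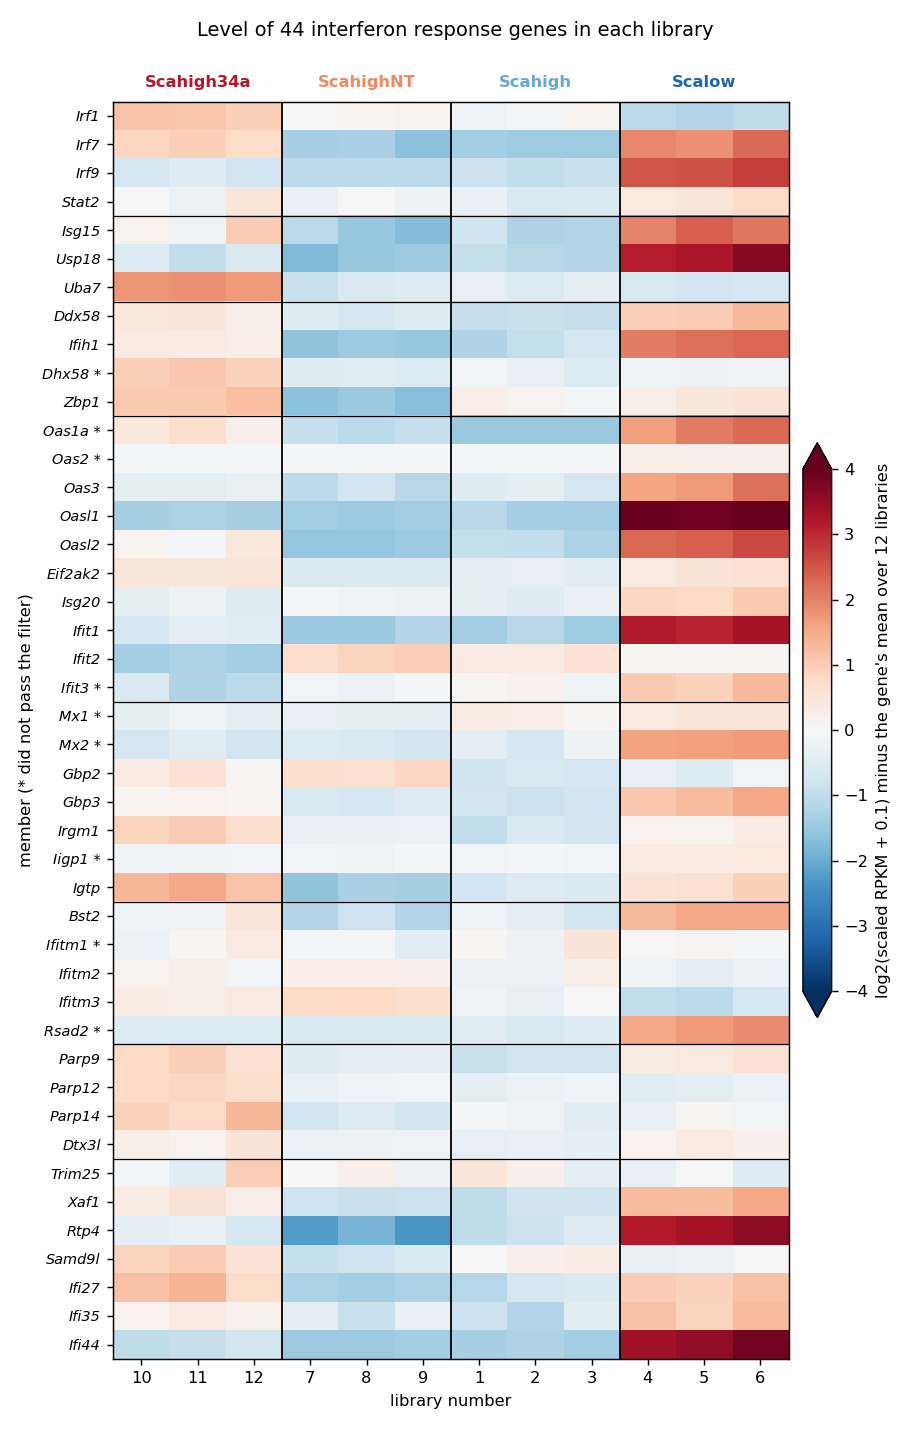
Heat map of the 44 interferon response genes (rows, grouped by role) in 12 libraries (columns: Scahigh34a, ScahighNT, Scahigh, Scalow, 3 each), coloured by log2(scaled RPKM + 0.1) minus the gene's mean over the libraries; an asterisk marks the 9 members that did not pass the filter. Scalow is the reddest block for Oasl1, Ifi44, Usp18, Ifit1 and Rtp4, and Scahigh34a for Uba7, Igtp and Irf1.

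The 4 transcription factors of the list behaved in 3 different ways. Irf1, a factor that interferon gamma induces through a GAS, was at 24.2, 23.8 and 21.3 RPKM in Scahigh34a, against 11.3, 11.8 and 12.1 RPKM in ScahighNT libraries (log2 fold change 0.97, SE 0.07, adjusted p = 3.3e-07). In unmanipulated cells Irf1 was at 10.04, 10.5 and 11.6 RPKM in Scahigh, against 5.18, 4.898 and 5.41 RPKM in Scalow libraries (log2 fold change 1.04, SE 0.07, adjusted p = 1.6e-07). The groups did not overlap in either comparison, and Irf1 was the only member that was both higher in Scahigh and higher on induction, so that its Scahigh34a level was 448% of its Scalow level.

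Irf7, the factor that amplifies the type I response, was at 2.33, 2.51 and 2.12 RPKM in Scahigh34a and at 0.433, 0.443 and 0.331 RPKM in ScahighNT libraries (log2 fold change 2.27, SE 0.12, adjusted p = 1.9e-08). In the sorted cells it was at 0.425, 0.399 and 0.3995 RPKM in Scahigh, against 4.97, 4.64 and 6.37 RPKM in Scalow libraries (log2 fold change -3.40, SE 0.12, adjusted p = 4.4e-10). Induced cells thus stood between the low level of the other Scahigh groups and the level of Scalow, with no overlap on either side.

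Irf9, the DNA-binding part of the type I complex, was at 0.583, 0.531 and 0.571 RPKM in Scahigh, against 6.99, 7.08 and 8.302 RPKM in Scalow libraries (log2 fold change -3.51, SE 0.09, adjusted p = 2.9e-11). On induction it stayed low, at 0.6696, 0.771 and 0.621 RPKM in Scahigh34a, against 0.501, 0.505 and 0.494 RPKM in ScahighNT libraries (log2 fold change 0.39, SE 0.09, adjusted p = 0.0028). Every Scahigh34a library was above every ScahighNT library, but the fold change did not pass the 0.50 threshold. It reached 0.50 without library 12. Stat2, the partner of IRF9 in that complex, was at 1.08, 0.884 and 1.53 RPKM in Scahigh34a, against 0.847, 1.06 and 0.893 RPKM in ScahighNT libraries (log2 fold change 0.26, SE 0.18, adjusted p = 0.21), and these groups overlapped. Stat2 was lower in Scahigh, at 0.8697, 0.657 and 0.677 RPKM in Scahigh, against 1.42, 1.501 and 1.84 RPKM in Scalow libraries (log2 fold change -1.02, SE 0.18, adjusted p = 0.00032).

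**Figure D2:**
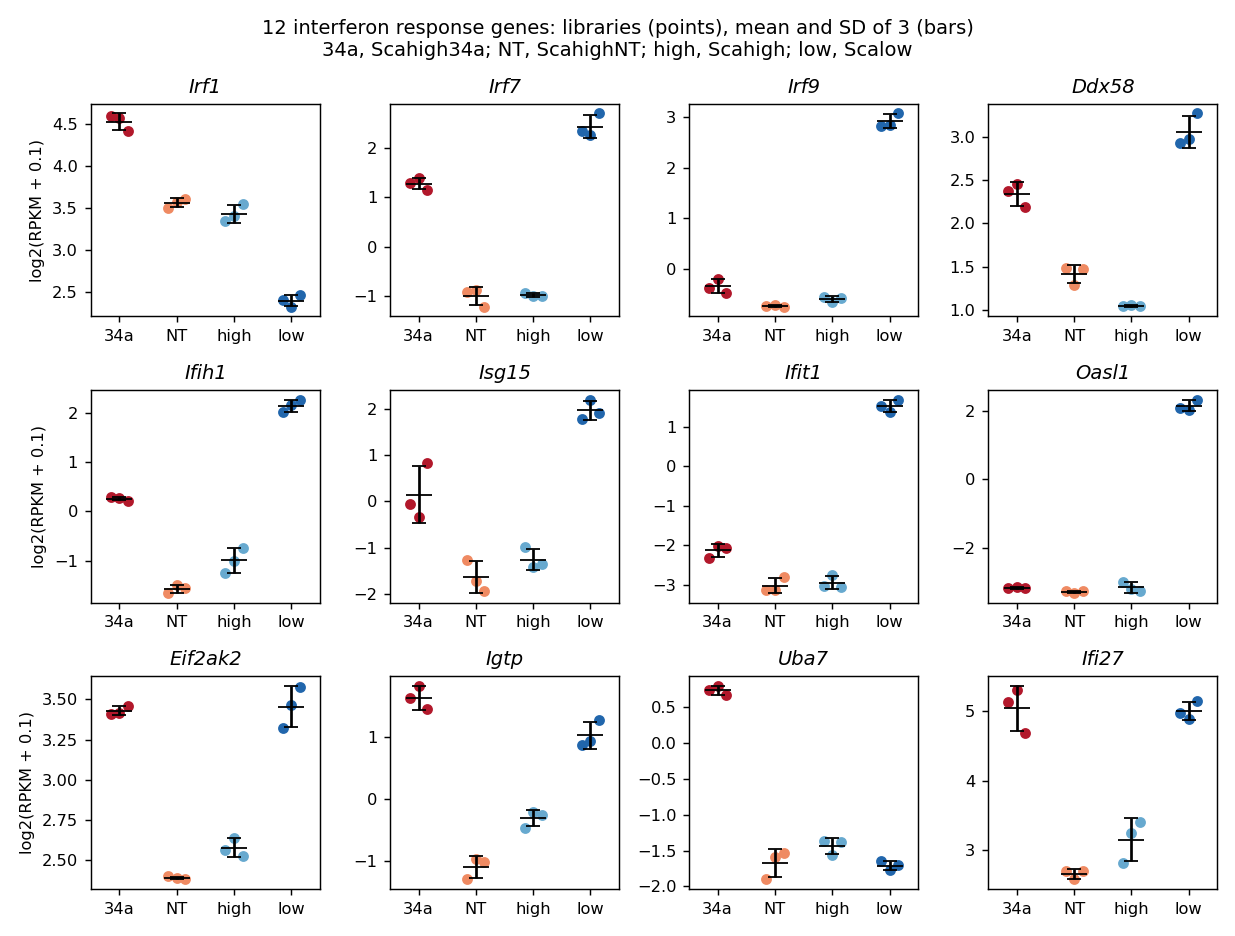
Levels of 12 interferon response genes as log2(scaled RPKM + 0.1) in Scahigh34a, ScahighNT, Scahigh and Scalow; points are libraries, and bars are the mean and SD of 3. Irf1 was highest in Scahigh34a and lowest in Scalow, Irf7 was intermediate in Scahigh34a, and Irf9 and Oasl1 were near the ScahighNT level in Scahigh34a; vertical axes differ between panels.

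All 3 members of the ISG15 system were called higher on induction, beside 17.5% of all tested genes. Uba7 was tested only because of Scahigh34a, and Isg15 and Usp18 only because of Scalow. Isg15 encodes a ubiquitin-like protein that is coupled to other proteins. It was at 0.8602, 0.687 and 1.68 RPKM in Scahigh34a, against 0.318, 0.203 and 0.163 RPKM in ScahighNT libraries (log2 fold change 1.78, SE 0.27, adjusted p = 0.00012), with library 12 well above the other 2 of its group. In the sorted cells it was at 0.403, 0.273 and 0.289 RPKM in Scahigh, against 3.34, 4.48 and 3.67 RPKM in Scalow libraries (log2 fold change -3.22, SE 0.27, adjusted p = 7.2e-07). Uba7, the enzyme that activates ISG15, showed a different picture: 1.58, 1.63 and 1.49 RPKM in Scahigh34a, against 0.168, 0.232 and 0.244 RPKM in ScahighNT libraries (log2 fold change 2.41, SE 0.11, adjusted p = 2.5e-09). Uba7 was also low in the other cells, at 0.2896, 0.238 and 0.283 RPKM in Scahigh and 0.218, 0.192 and 0.208 RPKM in Scalow libraries (log2 fold change 0.27, SE 0.11, adjusted p = 0.04, not called), and its Scahigh34a level was 760.0% of that in Scalow. Usp18, the protease that removes ISG15 and also dampens the type I receptor, was at 0.394, 0.266 and 0.391 RPKM in Scahigh34a, against 0.114, 0.154 and 0.167 RPKM in ScahighNT libraries (log2 fold change 0.87, SE 0.15, adjusted p = 0.00039). In the sorted cells it was at 0.278, 0.241 and 0.225 RPKM in Scahigh, against 6.38, 6.92 and 9.06 RPKM in Scalow libraries (log2 fold change -4.43, SE 0.15, adjusted p = 2.9e-10), so the rise on induction was small beside the gap between the sorted cells. With a pseudocount of 1 the rise of Usp18 was not called (log2 fold change 0.24). Scahigh34a against Scahigh gave no call either (log2 fold change 0.36, adjusted p = 0.053, limma).

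Of the 4 nucleic acid sensors on the list, 3 were tested and all 3 rose on induction, beside 17.5% of all tested genes. Zbp1 was tested only because of Scahigh34a. Outside the list, the sensor genes Tlr3 and Mb21d1 rose and fell, as given below. Ddx58, which encodes the RNA sensor RIG-I, was at 5.07, 5.38 and 4.44 RPKM in Scahigh34a, against 2.7, 2.35 and 2.66 RPKM in ScahighNT libraries (log2 fold change 0.92, SE 0.10, adjusted p = 7.9e-06). Ifih1, which encodes the sensor MDA5 for long double-stranded RNA, was at 1.12, 1.11 and 1.06 RPKM in Scahigh34a, against 0.217, 0.253 and 0.2397 RPKM in ScahighNT libraries (log2 fold change 1.83, SE 0.12, adjusted p = 7.3e-08). Neither overlapped between the groups. Both were lower in Scahigh: Ddx58 was at 1.96, 1.98 and 1.96 RPKM in Scahigh, against 7.52, 7.75 and 9.55 RPKM in Scalow libraries (log2 fold change -2.01, SE 0.10, adjusted p = 6.6e-09). For Ifih1 the levels were 0.322, 0.3999 and 0.4999 RPKM in Scahigh, against 3.95, 4.401 and 4.698 RPKM in Scalow libraries (log2 fold change -3.15, SE 0.12, adjusted p = 5e-10). Zbp1, a sensor of left-handed nucleic acid that can start cell death, was at 1.18, 1.19 and 1.33 RPKM in Scahigh34a, against 0.0994, 0.126 and 0.0913 RPKM in ScahighNT libraries (log2 fold change 2.70, SE 0.12, adjusted p = 2.1e-09). For Zbp1 and Ifih1, ScahighNT was itself below Scahigh. Against Scahigh, the log2 fold change of Scahigh34a was 0.98 for Zbp1 and 1.25 for Ifih1. Zbp1 was not called in the sorted cells, with 0.6503, 0.593 and 0.494 RPKM in Scahigh, against 0.632, 0.757 and 0.821 RPKM in Scalow libraries (log2 fold change -0.30, SE 0.12, adjusted p = 0.038), where the groups overlapped. Dhx58, which encodes the regulator LGP2, was below the filter in all groups, with 176 to 194 reads in Scahigh34a libraries, against 47 to 53 reads in ScahighNT libraries. On recovered reads limma-voom called it higher on induction (log2 fold change 1.88, adjusted p = 6.8e-07), and Scahigh (45 to 74 reads in Scahigh) overlapped Scalow (60 to 67 reads in Scalow).

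The oligoadenylate synthetase family, whose members make the second messenger of RNase L or are related to those enzymes, was low outside Scalow. Oasl1 was at 0.02596, 0.00763 and 0.00356 RPKM in Scahigh, against 4.13, 3.92 and 4.89 RPKM in Scalow libraries (log2 fold change -5.30, SE 0.11, adjusted p = 6.5e-12), which is 1 to 8 reads in Scahigh, against 1081 to 1374 reads in Scalow. No library of Scahigh34a, ScahighNT or Scahigh held more than 8 reads of it. On induction there were 3 to 4 reads in Scahigh34a, against 0 to 1 reads in ScahighNT (log2 fold change 0.12, SE 0.11, adjusted p = 0.35), which is no call. Oasl2 rose to 0.265, 0.224 and 0.349 RPKM in Scahigh34a, against 0.0161, 0.0151 and 0.0236 RPKM in ScahighNT libraries (log2 fold change 1.67, SE 0.14, adjusted p = 6.9e-07), but was higher still, at 1.54, 1.65 and 1.98 RPKM in Scalow libraries. Oas3 was at 0.337, 0.347 and 0.375 RPKM in Scahigh34a, against 0.1804, 0.242 and 0.166 RPKM in ScahighNT libraries (log2 fold change 0.62, SE 0.15, adjusted p = 0.0041). The adjusted p of Oas3 moved to between 0.010 and 0.015 without library 7, 9 or 10, with the log2 fold change at 0.58 to 0.65. Oas1a had no read in any Scahigh library, against 104 to 182 reads in Scalow libraries, so that it was at least 52.2-fold lower in Scahigh if each of its libraries is set at a floor of 3 reads. It had 36 to 55 reads in Scahigh34a, against 5 to 7 reads in ScahighNT (log2 fold change 2.71, adjusted p = 9.4e-05, limma-voom). Oas2 had 0 or 1 read in every library of Scahigh34a, ScahighNT and Scahigh, against 8 in each Scalow library. Oas1a belongs to a cluster of close copies in the mouse, and how reads that fit several copies were counted is not given in the sources used here.

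Genes that block translation or degrade RNA split further. Eif2ak2 encodes PKR, the kinase that stops translation when it binds double-stranded RNA. It was at 10.5, 10.6 and 10.9 RPKM in Scahigh34a, against 5.16, 5.13 and 5.102 RPKM in ScahighNT libraries (log2 fold change 1.04, SE 0.07, adjusted p = 8.9e-08). In the sorted cells it was at 5.81, 6.13 and 5.64 RPKM in Scahigh, against 9.903, 10.9 and 11.9 RPKM in Scalow libraries (log2 fold change -0.88, SE 0.07, adjusted p = 3.4e-07), and the induced level overlapped that of Scalow. Isg20, an exonuclease, was lower in Scahigh (3.52 ± 0.245 RPKM in Scahigh, 8.64 ± 0.876 RPKM in Scalow, SD, n = 3 each; log2 fold change -1.27, SE 0.09, adjusted p = 2.1e-07) and was not called on induction (log2 fold change -0.19, adjusted p = 0.09).

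The 3 Ifit genes, whose products bind foreign RNA ends or take part in that complex, lie side by side on chromosome 19 but did not move together. Ifit1 was at 0.1004, 0.147 and 0.1398 RPKM in Scahigh34a, against 0.0144, 0.0135 and 0.0421 RPKM in ScahighNT libraries (log2 fold change 0.90, SE 0.13, adjusted p = 0.00011), that is 22 to 32 reads in Scahigh34a, against 3 to 9 reads in ScahighNT. It was at 0.0222, 0.047 and 0.0195 RPKM in Scahigh, against 2.804, 2.52 and 3.14 RPKM in Scalow libraries (log2 fold change -4.50, SE 0.13, adjusted p = 8.2e-11). Ifit2 was the one tested member that fell on induction, to 1.13, 1.22 and 1.11 RPKM in Scahigh34a, against 5.01, 5.84 and 6.23 RPKM in ScahighNT libraries (log2 fold change -2.20, SE 0.09, adjusted p = 1.7e-09). Its levels of 3.87, 3.89 and 4.65 RPKM in Scahigh and 3.26, 3.22 and 3.23 RPKM in Scalow libraries differed by less than the threshold (log2 fold change 0.34, SE 0.09, adjusted p = 0.007), and no match to the miR-34a seed was found in its 3′ UTR. Ifit3, below the filter, had 0 to 9 reads in Scahigh34a, against 16 to 19 reads in ScahighNT, and limma-voom called it lower on induction (log2 fold change -2.99, adjusted p = 0.0039). Scahigh had 16 to 24 reads in Scahigh, against 54 to 72 reads in Scalow (log2 fold change -1.52, adjusted p = 0.011). The mouse holds near copies of Ifit1 and Ifit3, so the counts of these 2 genes are uncertain.

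Immunity-related GTPases and guanylate-binding proteins attack the vacuoles of intracellular microbes and respond strongly to interferon gamma. Of the 4 that were tested, Igtp, Irgm1 and Gbp2 were higher in induced cells than in Scalow and Gbp3 was lower. Igtp had the largest log2 fold change of the 25 members that rose, at 2.99, 3.45 and 2.63 RPKM in Scahigh34a, against 0.306, 0.4096 and 0.3901 RPKM in ScahighNT libraries (log2 fold change 2.73, SE 0.14, adjusted p = 8.6e-09), although on recovered reads Oasl2 (3.85) and Zbp1 (3.56) had larger ones than Igtp (3.07). For Igtp, ScahighNT was itself below Scahigh, and against Scahigh the log2 fold change of Scahigh34a was 1.95. In the sorted cells Igtp was at 0.625, 0.763 and 0.731 RPKM in Scahigh, against 1.73, 1.81 and 2.33 RPKM in Scalow libraries (log2 fold change -1.34, SE 0.14, adjusted p = 4.4e-06), and every Scahigh34a library was above every Scalow library. Irgm1, which controls this family, was at 10.8, 11.96 and 9.42 RPKM in Scahigh34a, against 4.69, 4.86 and 4.94 RPKM in ScahighNT libraries (log2 fold change 1.13, SE 0.11, adjusted p = 2.1e-06). In the sorted cells Irgm1 was at 2.91, 3.77 and 3.499 RPKM in Scahigh, against 6.43, 6.298 and 7.17 RPKM in Scalow libraries (log2 fold change -0.95, SE 0.11, adjusted p = 8.5e-06). Gbp3 rose in the same direction (log2 fold change 0.71, adjusted p = 0.00013) and was -2.08 on the log2 scale in Scahigh against Scalow. Its induced level was 41.4% of Scalow. Gbp2 differed: it was at 9.62, 11.8 and 7.91 RPKM in Scahigh34a and 12.4, 11.9 and 13.6 RPKM in ScahighNT libraries (log2 fold change -0.39, SE 0.14, adjusted p = 0.03), which passes no threshold, and at 4.35, 5.01 and 4.84 RPKM in Scahigh libraries, against 6.11, 5.24 and 7.06 RPKM in Scalow libraries. Every library with the vector was above every library without it. Mx1 and Mx2, the classical antiviral GTPases, were below the filter: Mx1 had 5 to 9 reads in Scahigh34a, 4 to 5 reads in ScahighNT, 16 to 24 reads in Scahigh and 22 to 29 reads in Scalow. Mx2 had 6 to 12 reads in Scahigh34a, 5 to 9 reads in ScahighNT, 6 to 16 reads in Scahigh and 97 to 112 reads in Scalow. Iigp1 did not exceed 15 reads in any library. Gbp2 and Gbp3, Mx1 and Mx2, and Igtp with its neighbour Irgm2 (overlap of 8.01% of the exonic bases of Igtp in GENCODE on GRCm38) are similar or overlapping genes whose reads may be shared.

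Genes that act at membranes held both the highest and some of the lowest levels of the list. Ifitm3 and Ifitm2, which block the fusion of virus with endosomes, were at 239 ± 8.58 RPKM in Scahigh34a and 118 ± 14.01 RPKM in Scahigh34a, means that no other member approached (SD, n = 3 each). Ifitm3 was higher in Scahigh, at 176, 153 and 196 RPKM in Scahigh, against 98.2, 93.7 and 122 RPKM in Scalow libraries (log2 fold change 0.74, SE 0.11, adjusted p = 0.00012), opposite to most of the list. It was at 239.8, 229.8 and 247 RPKM in Scahigh34a, against 330.1, 336 and 307 RPKM in ScahighNT libraries, a difference too small in fold for a call (log2 fold change -0.44, adjusted p = 0.0049). Ifitm2 was called in neither comparison, and 40.9% of its exonic bases lie in another annotated gene on its strand. Bst2, which tethers budding virus, rose on induction (log2 fold change 1.12, adjusted p = 0.00025) and was lower in Scahigh than in Scalow (log2 fold change -1.87, adjusted p = 3.5e-06). Rsad2, which encodes viperin, had 5 or fewer reads in each library of Scahigh34a, ScahighNT and Scahigh, against 107 to 161 reads in Scalow. Ifitm1 had at most 6 reads in any library.

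Of the ADP-ribosyltransferases and their partner, Parp9 and Dtx3l encode proteins that work as a pair on the STAT pathway, and their genes share 458 exonic bases on opposite strands. Whether reads were counted by strand is not stated, so the 2 genes may borrow reads from each other. Parp9 was at 8.25 ± 1.08 RPKM in Scahigh34a and 3.56 ± 0.1603 RPKM in ScahighNT (log2 fold change 1.18, SE 0.11, adjusted p = 1.4e-06), and at 2.71 ± 0.172 RPKM in Scahigh and 6.37 ± 0.764 RPKM in Scalow (log2 fold change -1.20, SE 0.11, adjusted p = 1.1e-06). The errors are SD with n = 3 each. Dtx3l was lower in Scahigh (log2 fold change -0.55, SE 0.09, adjusted p = 0.00027), a call that was lost without library 3 (log2 fold change -0.50), under upper quartile scaling (-0.47), on RPKM as deposited (-0.46) and with a pseudocount of 1 (-0.43). Its log2 fold change of 0.48 on induction missed the threshold, but the gene was called higher under upper quartile scaling (0.57), on RPKM as deposited (0.55), in a fit of these 2 groups alone (0.52), with limma-voom (0.54) and without library 3, 7, 8, 9, 10 or 11 (0.51 to 0.60). Parp12 was at 19.7 ± 0.868 RPKM in Scahigh34a, against 9.99 ± 0.574 RPKM in ScahighNT (log2 fold change 0.97, SE 0.07, adjusted p = 3.6e-07). Parp14, a transferase that modifies the response to cytokines, rose by 1.67 on the log2 scale (adjusted p = 2.3e-06). Neither was called in the sorted cells, with log2 fold changes of 0.09 and -0.07 between Scahigh and Scalow.

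The remaining 7 members have diverse or poorly known roles. Ifi27, a mitochondrial protein in its human form, was at 35.02, 39.5 and 25.6 RPKM in Scahigh34a, against 6.37, 5.88 and 6.38 RPKM in ScahighNT libraries (log2 fold change 2.38, SE 0.17, adjusted p = 1.6e-07). Without induction it was at 6.91, 9.41 and 10.4 RPKM in Scahigh, against 31.3, 29.4 and 35.4 RPKM in Scalow libraries (log2 fold change -1.85, SE 0.17, adjusted p = 1.4e-06), and the induced level overlapped that of Scalow. Samd9l, which restrains viral translation, was at 7.36, 8.16 and 5.83 RPKM in Scahigh34a, against 2.02, 2.19 and 2.57 RPKM in ScahighNT libraries (log2 fold change 1.61, SE 0.14, adjusted p = 1.1e-06). Samd9l was not called between Scahigh and Scalow (log2 fold change 0.34). For Samd9l and Rtp4, ScahighNT was itself below Scahigh. Ifi44 was almost without reads in Scahigh, at 0.0121, 0.0237 and 0.00884 RPKM in Scahigh, against 2.895, 3.23 and 4.02 RPKM in Scalow libraries (log2 fold change -4.91, SE 0.12, adjusted p = 2.6e-11). The 10 to 18 reads in Scahigh34a, against 1 to 2 reads in ScahighNT, gave a call for induction (log2 fold change 0.54, SE 0.12, adjusted p = 0.0023) that was lost without library 12 (log2 fold change 0.48). Rtp4 rose by 1.70, Xaf1 by 1.22 and Ifi35 by 0.73 on the log2 scale, and the 3 were lower in Scahigh, with log2 fold changes of -4.16, -2.24 and -1.94. Rtp4 was tested only because of its Scalow libraries. The call of Ifi35 on induction was lost without library 8, 10 or 11 (adjusted p of 0.018, 0.014 and 0.015), and 16.8% of its exonic bases lie opposite another gene. Trim25, the ubiquitin ligase that activates RIG-I, was at 3.98, 3.003 and 8.21 RPKM in Scahigh34a, against 4.12, 4.66 and 3.48 RPKM in ScahighNT libraries (log2 fold change 0.18, SE 0.32, adjusted p = 0.64), with library 12 alone at the high end.

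The comparison on induction and the comparison of the sorted cells share no library, and their calls were crossed. The filter was set on all 12 libraries, so it shaped the calls of both. Of the 24 members that were lower in Scahigh, 19 rose when miR-34a was induced, none fell, and Irf9, Stat2, Oasl1, Isg20 and Dtx3l were not called. Over all 2161 genes that were lower in Scahigh, 18.6% rose on induction and 22.4% fell. Of the 24, Irf9, Isg15, Usp18, Oas3, Oasl1, Oasl2, Ifit1, Rtp4 and Ifi44 were tested only because of their Scalow libraries. Their place among the 24 therefore carries little by itself. Usp18, Oas3, Oasl2, Ifit1 and Ifi44 are among the 19, and with a pseudocount of 1 they were not called on induction. Irf7, Isg15, Ifih1, Gbp3, Igtp, Xaf1, Rtp4 and Ifi35, also among the 19, reached 1 RPKM only in Scahigh34a and Scalow libraries. These are the high side of both comparisons, so their place among the 19 carries little by itself. For Ifih1, Igtp and Rtp4 the rise started from a ScahighNT level below that of Scahigh. Uba7, Zbp1, Parp12, Parp14 and Samd9l rose without a call in the sorted cells, Irf1 was higher in both, and Gbp2, Ifitm2 and Trim25 were called in neither.

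**Figure D3:**
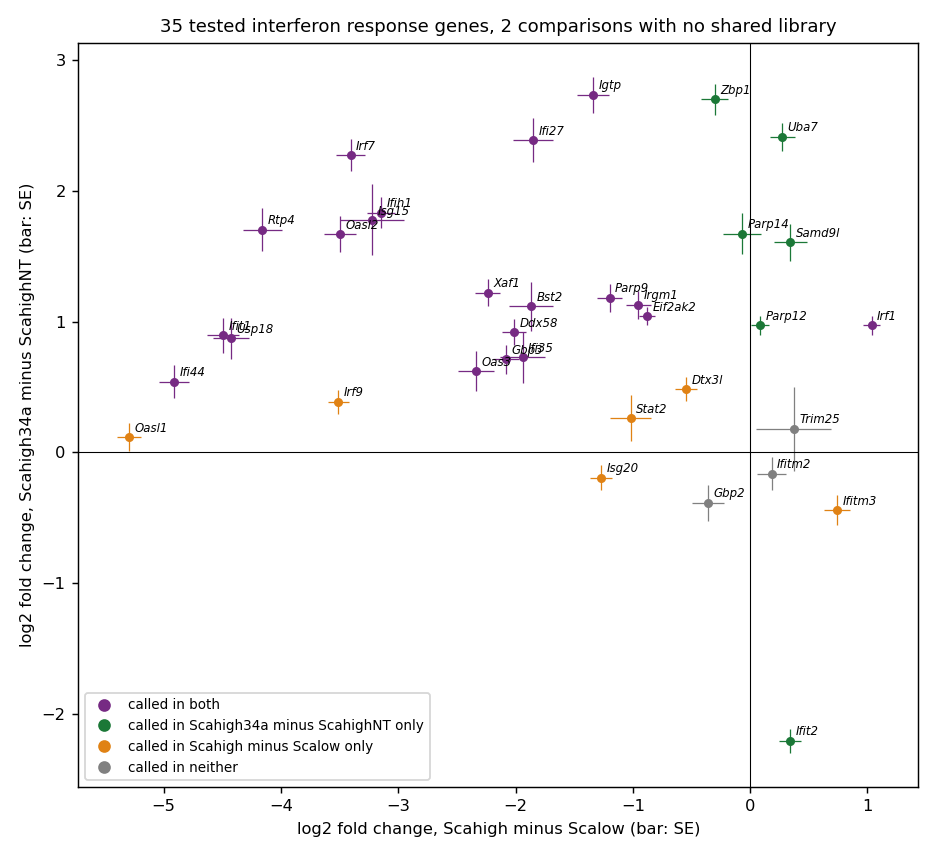
Log2 fold change of 35 tested interferon response genes for Scahigh against Scalow (horizontal) and Scahigh34a against ScahighNT (vertical), with SE bars; colours give the comparisons in which a gene was called. The upper left quadrant holds the 19 members that were lower in Scahigh and rose on induction, while Ifit2 is alone at the bottom with a log2 fold change of -2.20 on induction.

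The rise differed in how near it came to the level of Scalow. Scahigh34a against Scalow was a comparison added after the values were seen. Of the 35 tested members 10 were higher and 18 lower there, with 26.3% of tested genes higher and 28.6% lower. The 10 higher lay near the share of all tested genes and include Uba7 and Zbp1, tested only because of Scahigh34a. Among the 18 lower, Irf9, Isg15, Usp18, Oas3, Oasl1, Oasl2, Ifit1, Rtp4 and Ifi44 were tested only because of Scalow. Neither count carries much by itself. On recovered reads with no filter this comparison had 11 higher (21.0% of genes) and 25 lower (21.0%). Among the 24 members that were lower in Scahigh, the induced mean was 162% of the Scalow mean for Irgm1, 155% for Igtp, 129% for Parp9, 106% for Dtx3l, 104% for Ifi27 and 97.9% for Eif2ak2. Irgm1 (log2 fold change 0.68, adjusted p = 9e-05) and Igtp (log2 fold change 0.61, adjusted p = 0.0017) were called higher than Scalow, the call of Igtp being lost without library 4 or 5 (log2 fold change 0.49 and 0.53). At the other end, the induced mean was 0.255% of Scalow for Oasl1, 1.6% for Ifi44, 4.57% for Ifit1, 4.7% for Usp18, 6.53% for Rtp4 and 9.21% for Irf9, and all 6 were called lower. All 6 were tested only because of their Scalow libraries, so that this call carries little by itself. Irf7 (43.5%), Isg15 (28.1%) and Ifih1 (25.2%) lay between and were lower as well, Isg15 again tested only because of Scalow.

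**Figure D4:**
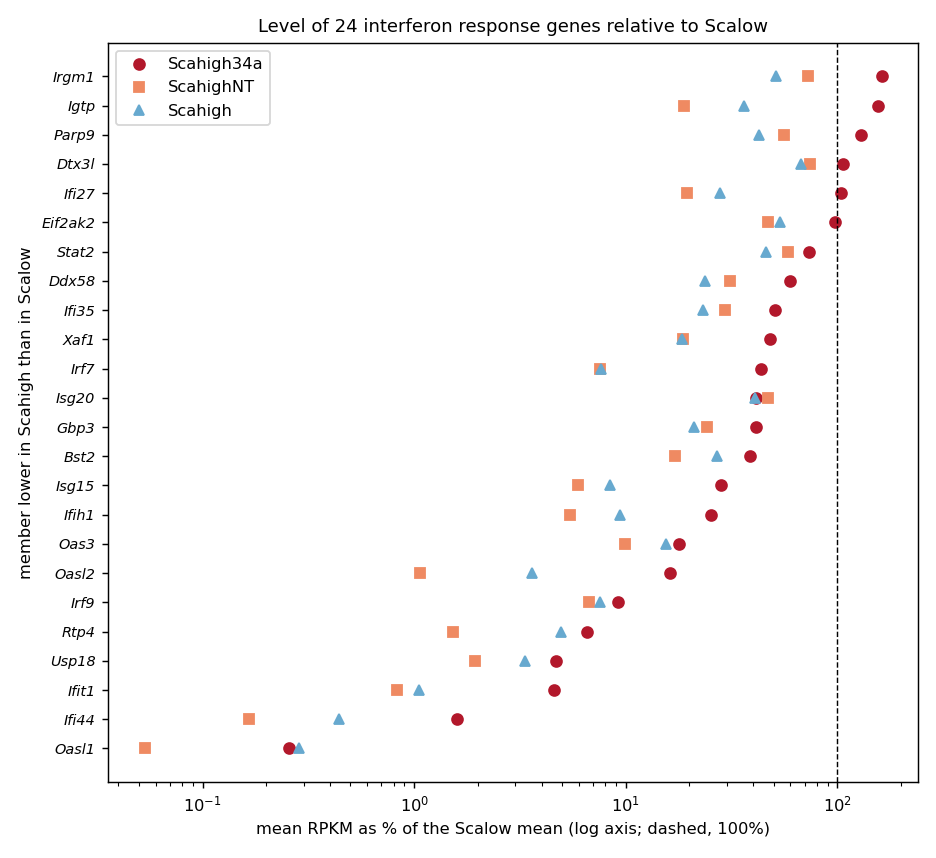
Mean RPKM of Scahigh34a, ScahighNT and Scahigh as a percentage of the Scalow mean (log axis, dashed line at 100%) for the 24 interferon response genes that were lower in Scahigh than in Scalow, ordered by the Scahigh34a value. The Scahigh34a points run from 162% for Irgm1 to 0.255% for Oasl1.

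Carrying the vector without induction was set against uninfected cells of the same sort (ScahighNT against Scahigh). Here 3 members were higher, with 10.4% of tested genes higher, and 5 were lower, with 11.1% of tested genes lower. The median log2 fold change of the tested members was -0.11. Gbp2 was at 12.4, 11.9 and 13.6 RPKM in ScahighNT, against 4.35, 5.01 and 4.84 RPKM in Scahigh libraries (log2 fold change 1.40, SE 0.14, adjusted p = 9.2e-06), with no overlap. Ifitm3 was higher as well (log2 fold change 0.90, SE 0.11, adjusted p = 6.2e-05), and so was Irgm1 (log2 fold change 0.51, SE 0.11, adjusted p = 0.0022), which was no longer called in 10 of the 12 fits that left out 1 library (log2 fold change 0.40 to 0.50 where it was not called). The 5 lower members were Zbp1 (log2 fold change -1.72, SE 0.12, adjusted p = 4e-07), Rtp4 (log2 fold change -1.35, SE 0.16, adjusted p = 4.5e-05), Samd9l (log2 fold change -0.95, SE 0.14, adjusted p = 0.00019), Igtp (log2 fold change -0.79, SE 0.14, adjusted p = 0.00068) and Ifih1 (log2 fold change -0.58, SE 0.12, adjusted p = 0.0018), the last one not without library 3 (log2 fold change -0.48). The comparison on induction uses the same ScahighNT libraries. The rise of these 5 there starts from a level below that of Scahigh and is not read as a rise over uninfected cells. Against Scahigh, whose libraries this comparison shares with the one before, Scahigh34a had log2 fold changes of 0.98 for Zbp1, 0.66 for Samd9l, 1.95 for Igtp, 1.25 for Ifih1 and 0.36 for Rtp4, and only Rtp4 was not called. In all, 22 members were higher and 1 was lower in Scahigh34a than in Scahigh (22.2% and 25.3% of tested genes). On recovered reads with no filter, ScahighNT had 4 members higher and 7 lower than Scahigh (7.32% and 10.7% of genes), and Scahigh34a had 25 higher and 3 lower (16.4% and 19.3%). Usp18, Oas3, Ifi44 and Bst2 were among those that rose against ScahighNT and were not called against Scahigh.

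Other genes of the pathway were read from a list of 41, of which 38 were in the table and 26 passed the filter. The type III interferon genes Il28a and Il28b and their receptor gene Il28ra were not found under these names, so their levels are not known. The interferon genes that were found were nearly silent: 4 alpha genes (Ifna1, Ifna2, Ifna4 and Ifna5) were listed at 0 in all libraries, and Ifnb1 averaged 0.0152 ± 0.01497 RPKM in Scahigh34a, 0.0109 ± 0.01896 RPKM in ScahighNT, 0.00596 ± 0.0103 RPKM in Scahigh and 0.0519 ± 0.0368 RPKM in Scalow (SD, n = 3 each). Ifng did not pass the filter either, with a mean of 0.00333 ± 0.00576 RPKM in Scahigh34a and 0.0222 ± 0.0204 RPKM in Scalow. On induction 11 of the 26 rose and 3 fell, beside 17.5% and 21.4% of all tested genes. In the receptor for interferon gamma both chains rose: Ifngr1 was at 12.03 ± 0.148 RPKM in Scahigh34a and 5.29 ± 0.155 RPKM in ScahighNT (log2 fold change 1.17, SE 0.06, adjusted p = 1.5e-08), and Ifngr2 at 19.6 ± 0.377 RPKM in Scahigh34a and 8.37 ± 0.561 RPKM in ScahighNT (log2 fold change 1.22, SE 0.07, adjusted p = 1.5e-08). Jak1 (0.79), Tyk2 (0.94) and Il10rb (0.81), the kinases and a receptor chain of type III interferon, also rose, as log2 fold changes. The chains of the type I receptor, Ifnar1 (0.37) and Ifnar2 (-0.00), were not called.

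Among factors and sensors outside the list, Irf5 rose (log2 fold change 1.36, adjusted p = 4.1e-07), as did Tlr3, the endosomal sensor of double-stranded RNA, at 3.22 ± 0.08803 RPKM in Scahigh34a and 0.9398 ± 0.05696 RPKM in ScahighNT (log2 fold change 1.68, SE 0.08, adjusted p = 3.3e-09), and its adaptor Ticam1 (0.67). Ikbke (0.65), Socs1 (0.77) and Pias1 (0.57), a kinase of the induction arm and a pair of inhibitors of the signal, rose too. Mb21d1, which encodes the DNA sensor cGAS, fell to 0.345, 0.323 and 0.453 RPKM in Scahigh34a, against 2.46, 2.54 and 2.601 RPKM in ScahighNT libraries (log2 fold change -2.48, SE 0.10, adjusted p = 1.2e-09), and the inhibitor Socs3 (-0.65) fell as well. Between Scahigh and Scalow 8 of the 26 were higher, Ifnar2, Ifngr2, Jak1, Jak2, Irf2, Irf5, Ticam1 and Ikbke, and 4 were lower, among them Tlr3, Mb21d1 and the RNA editor Adar, beside 19.9% and 20.4% of all tested genes. Tlr3 was at 1.45 ± 0.0435 RPKM in Scahigh and 5.61 ± 0.486 RPKM in Scalow (log2 fold change -1.88, SE 0.08, adjusted p = 1e-09).

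Markers of cell types that a culture could hold were read beside these results, since in bulk samples fewer cells of a type and less RNA per cell cannot be told apart. Leukocyte markers, 12 genes, summed to 1.18 to 1.4 RPKM in Scahigh34a, 1.65 to 1.78 in ScahighNT, 1.02 to 1.31 in Scahigh and 1.21 to 1.49 in Scalow. Cd68 held the largest part of each sum, and Nkg7 and Tyrobp had no read in any library. Itgam moved with the sort, with 7 to 10 reads in Scahigh, against 177 to 212 reads in Scalow (log2 fold change -4.38, adjusted p = 2.2e-07, limma-voom). No other leukocyte marker was called between Scahigh and Scalow. Without a call, Ptprc and Siglech ran the other way from Itgam, and Csf1r and Cd79a ran the same way. The fibroblast markers Pdgfra, Pdgfrb, Dcn and Lum summed to 0.3516 to 0.4402 RPKM in Scahigh34a, against 2.004 to 2.635 in ScahighNT, and to 1.012 to 1.242 in Scahigh, against 0.2557 to 0.33 in Scalow. The endothelial markers Pecam1, Cdh5 and Kdr summed to at most 0.09382 RPKM in any library, and Kdr had 14 to 31 reads in Scahigh34a, against 0 reads in ScahighNT. Pecam1 and Cdh5 were not called on induction, and Cdh5 ran the other way from Kdr (log2 fold change -0.85, limma-voom). The luminal markers Krt8, Krt18, Krt19, Epcam and Cldn7 summed to 5.58 to 6.4 RPKM in Scahigh34a, against 4.37 to 5.19 in ScahighNT, and to 13.04 to 15.28 in Scahigh, against 759 to 813 in Scalow. The basal markers Krt5, Krt14, Trp63 and Acta2 summed to 430.2 to 498.0 RPKM in Scahigh34a, against 1415 to 1567 in ScahighNT, and to 1266 to 1574 in Scahigh, against 324.2 to 397.6 in Scalow. Basal markers and the fibroblast sum therefore moved with both comparisons, and luminal markers differed far more by the sort than by the induction. Within the fibroblast list, Lum went the other way on induction, with 2 to 10 reads in Scahigh34a, against 0 reads in ScahighNT. Dcn was not called between Scahigh and Scalow (log2 fold change 0.46). The part of these cell types in the interferon response genes was not tested. The sort marker Sca-1 is encoded by Ly6a, itself a gene that interferon induces in mouse cells, and it ran the other way from most of the list, at 9.92 to 13.4 RPKM in Scahigh, against 0.995 to 1.88 in Scalow.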

How the data were processed

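The authors deposited RPKM per gene for 12 libraries (TopHat2 2.0.6, mm9, per the labels). The counting method and its use of strand are not known from the texts at hand. The authors' columns of means, of fold changes and of p-values (DESeq2) were not used, except a deposited mean of normalized reads, which fixed the RPKM worth of 1 read: 100% of 61739 values of 1 to 60 reads came out whole within 0.1 read. Columns show a group and a running number, so each was a replicate of its group.

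RPKM were scaled by an unweighted trimmed mean of M values (30% and 5% trimmed) over the genes tested, those that reached 1 RPKM in 3 or more libraries. limma 3.58.1 (R 4.3.3, trend) was fitted to log2(scaled RPKM + 0.1) of 10597 genes with 4 group means, 8 residual and 3.29 prior degrees of freedom, and p-values were adjusted over all of them. This scale understates the change of low genes. limma-voom 3.58.1 on recovered reads and other settings were alternatives. Scripts were tested on simulated data. Values per library were given for the 4 largest rises and falls of each comparison at 1 RPKM or more, transcription factors, RNA sensors and members against the main direction; further members were named after their values were seen. The members and lists were chosen with earlier results of these data known. Values of some genes of the wider pathway list are not reported here. Rows with no symbol (182) held up to 0.0942% of reads. Promoters and miR-34a are from RefSeq (GRCm38.p6), and exon overlaps and 3′ UTRs from GENCODE (GRCm38), other builds than that of the table. Python was 3.11.15.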

Additional observations from a re-analysis of the deposited data

How the results depend on the processing

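No paired analysis was possible because the columns carry a group and a running library number, not replicate numbers. The counts below are given without the share of all tested genes at the same setting. They show only how the member counts shift, not whether they exceed that share. Leaving out 1 library at a time gave 20 to 26 members higher and 1 lower for Scahigh34a against ScahighNT, 2 higher and 17 to 24 lower for Scahigh against Scalow, 2 to 3 higher and 4 to 7 lower for ScahighNT against Scahigh, 20 to 23 higher and 1 lower for Scahigh34a against Scahigh, and 8 to 10 higher and 11 to 19 lower for Scahigh34a against Scalow. The lowest counts of 20 higher on induction and of 17 and 11 lower than Scalow came from leaving out a Scalow library, when members that reach 1 RPKM only there were no longer tested, and the 8 higher than Scalow from leaving out library 10 or 11, when Uba7 and Zbp1 were not tested. Requiring 1 RPKM in every library left fewer members to test: 9 higher for Scahigh34a against ScahighNT, 8 lower for Scahigh against Scalow, 1 lower for ScahighNT against Scahigh, 10 higher for Scahigh34a against Scahigh, and 6 higher and 4 lower for Scahigh34a against Scalow. With no filter, 2 members were lower for Scahigh34a against ScahighNT and 3 for Scahigh34a against Scahigh, and limma-voom on recovered reads with no filter, added after the data were seen, gave the same 2 and 3. A minimum log2 fold change of 1 gave 16 higher for Scahigh34a against ScahighNT, 1 higher for Scahigh against Scalow, 1 higher and 2 lower for ScahighNT against Scahigh, and 5 higher for Scahigh34a against Scalow. An adjusted p below 0.05 with no minimum fold gave 3 lower for Scahigh34a against ScahighNT, 5 higher for Scahigh against Scalow, and 6 higher and 12 lower for ScahighNT against Scahigh. A pseudocount of 1 gave 18 higher for Scahigh34a against ScahighNT. For ScahighNT against Scahigh, upper quartile scaling gave 8 lower and a pseudocount of 1 gave 2 lower; the cause was not tested. None of the members that the naming rule chose changed direction under any setting run. Of 634 single values of the members that the naming rule chose, 618 kept their side of the thresholds, 14 no longer passed (all Irgm1 in ScahighNT against Scahigh) and 2 newly passed (Irf9 on induction). Below 1 RPKM, depth limits the fold: Oasl1, Ifi44 and Ifit1 rest on few reads outside Scalow.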
